A study of Mus musculus with 3 samples.

Results

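The comparison concerns retina labelled Otx2 KI against wild-type retina, both taken from mice at postnatal day 12 and read on 1 array each. These are 2 of the 3 arrays of the series; the remaining one, labelled Crx KO and of the same age, is quoted only beside values of these arrays. KI is the usual short form for knock-in and KO for knockout. The labels give the tissue, the genotype and the stage, and name no locus, promoter, strain, sex or number of mice for the Otx2 KI. Cy3-labelled RNA was hybridised, and the arrays were chosen by their genotype labels alone. The design asks how the expression profiles compare.

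Otx2 and Crx encode related homeodomain transcription factors of the K50 type, so called for the lysine in the DNA-reading helix, and both bind sites with the core TAATCC. In the retina Otx2 directs precursors towards the photoreceptor and bipolar fates. Crx, which acts downstream of it, drives the genes with which rods and cones catch light and answer it. The wild-type retina at this age is still extending its outer segments, the stacked membranes that hold the visual pigment. Bipolar, horizontal and amacrine cells pass the signal on, ganglion cells send it to the brain, and Muller glia span the tissue.

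Of 59305 non-control spots, 66.6% were well above background on the wild-type array and 63.5% on the Otx2 KI array, with 0 saturated. The arrays shared 1 slide and 1 scan. Values are given as scaled signal, the scanner's processed intensity after each array was divided by its 75th percentile and set on the wild-type array's scale. A gene was called measured when the signal of its probe stood well above background in both genotypes, which left 15809 of 21366 named genes. Each genotype has a single array, hence no replicates and no test, and a gene is called higher or lower by size alone, at 2-fold or more. By the error model of the scanner software, the log2 difference of a gene carried a median error of 0.20. That figure is the software's estimate and not a spread between repeat arrays, and it leaves out any variation from mouse to mouse. The number of arrays limits the precision. In whole retina, fewer cells of a type and less RNA per cell cannot be told apart.

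Crx was read first, together with Otx2. The Crx probe gave 9790 in wild-type, 7177 in the array labelled Crx KO and 1062 in Otx2 KI, in scaled signal. Crx was thus 9.22-fold lower in Otx2 KI (log2 -3.20, scanner error 0.20), while in the array labelled Crx KO it lay within 2-fold of wild-type. Otx2 read 40886 in wild-type against 63860 in Otx2 KI, which is 1.56-fold higher and within the 2-fold limit. Where either probe lies relative to the changed alleles is not given in the labels, so these signals do not check the labels. For this reason every array is named here by its label.

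Across the genome, most genes sat close to wild-type and a minority lay far from it. Of the 15809 measured genes, 213 (1.35%) stood 2-fold or more above wild-type in Otx2 KI and 400 (2.53%) as far below, while 15196 (96.1%) lay within 2-fold. The median log2 difference was 0.03 and the quartiles were -0.14 and 0.17. The excess of lower genes grew with the size of the difference: at 4-fold or more there were 35 genes above (0.221%) and 110 below wild-type (0.696%), and at 8-fold or more 13 above (0.0822%) and 44 below (0.278%). Photoreceptor lists held 36 of the 400 lower genes and 2 of the 213 higher ones. The other 364 lower and 211 higher genes lay outside those lists, and they are the main subject of what follows. The shares of gene families below also count photoreceptor-list genes that belong to them, such as Kcnj14, Kcne2, Cnga1, Cngb1, Slc24a1, Guca1b and Cabp4. Those shares are thus not confined to genes outside the photoreceptor lists. The plot of differences against signal shows both groups spread over most of the range of brightness.

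**Figure D1:**
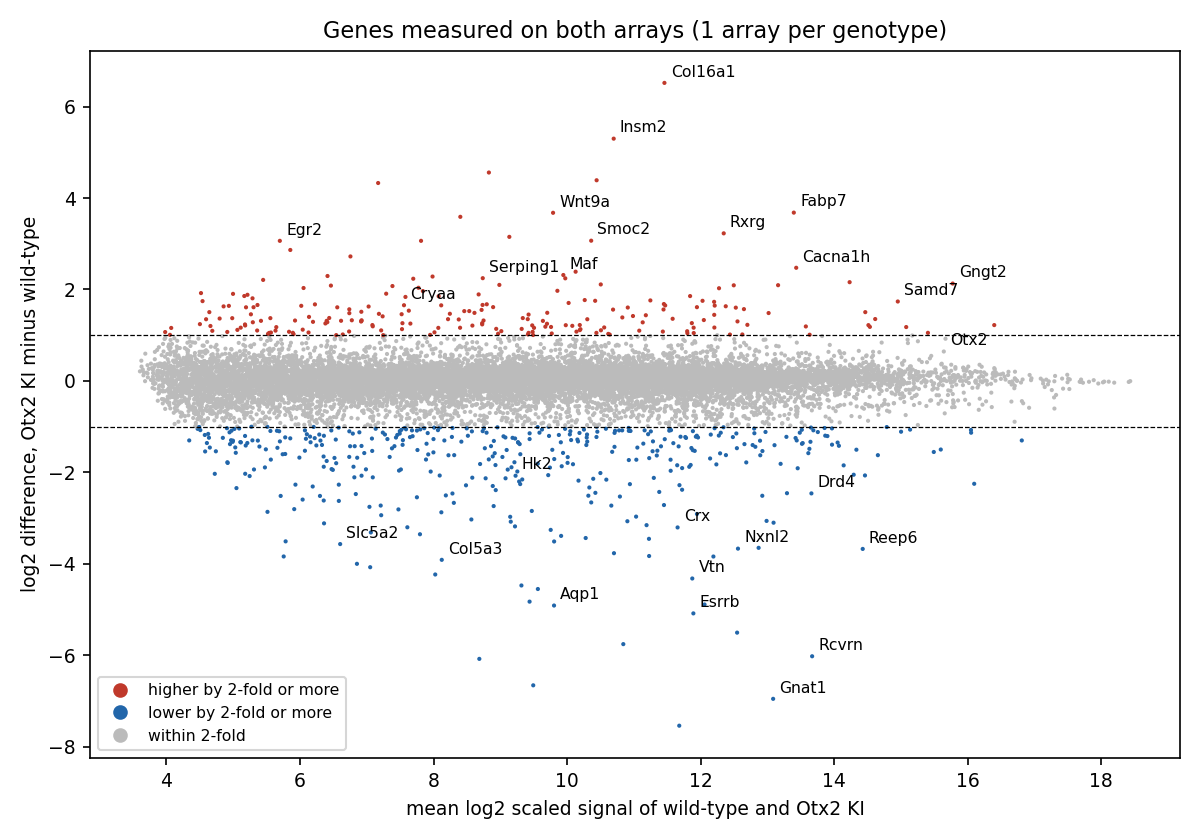
Each point is 1 of 15809 genes measured on both arrays; the horizontal axis is the mean log2 scaled signal of wild-type and Otx2 KI and the vertical axis the log2 difference, Otx2 KI minus wild-type. Dashed lines mark 2-fold; 213 points lie at or above the upper line and 400 at or below the lower one, and Col16a1 stands highest at 6.52.

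Beyond these, 86 genes had a decrease of at least 2-fold with their signal not well above background in Otx2 KI, and 40 had an increase of at least 2-fold with the wild-type signal not well above background. Such folds are lower bounds, taken against the higher of the dim signal itself and the dimmest probe well above background on that array. Both arrays were dim for 4834 genes, which give no difference. Among the measured genes with 2 or more measured probes, every probe was past 2-fold for 31 of 47 higher genes and 63 of 86 lower genes. A probe of the opposite sign was present in 3 of each.

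Photoreceptor genes are summarised only briefly. Of 16 rod phototransduction genes, all measured, 15 were lower (93.8%) and the median log2 difference was -1.85. Of 23 measured genes of the outer segment and connecting cilium, 11 were lower (47.8%), with a median of -0.99. Gnat1, the rod transducin alpha subunit, read 96776 in wild-type against 781 in Otx2 KI. Guca1a, which couples falling calcium to guanylate cyclase, read 5931 in wild-type against 1519 in Otx2 KI, with 6677 in Crx KO. It stood 3.91-fold lower in Otx2 KI beside a Crx KO signal above wild-type. Members above wild-type by 2-fold or more were Gngt2, the cone transducin gamma subunit, at 26795 and 117238, and Samd7, a repressor of non-rod genes in rods, at 17362 and 57869. Of the 12 measured members of the cone list 5 were lower and 1 higher.

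Promoters were examined because so many genes were lower together and both factors read the same core letters. RefSeq promoters of GRCm38.p6, covering 250 bases before and 50 after each start site, were found for 305 of the 400 lower genes, 163 of the 213 higher genes and 12056 genes within 2-fold. The letters TAATCC, searched on both strands and so including GGATTA, stood in 53 of 385 promoters of lower genes (13.8%), in 13 of 201 of higher genes (6.47%) and in 893 of 15302 of genes within 2-fold (5.84%). The share over all 32851 promoters was 7.06%. It was 16.5% for the 97 promoters of genes lower by 4-fold or more and 20.0% for the 35 of genes lower by 8-fold or more. Outside the photoreceptor lists it was 11.6%, from 42 of 361 promoters of lower genes. No promoter among the 36 of genes higher by 4-fold or more held these letters. The absence was not particular to them, since TAATTA and TATAAA, described below, were also missing from these 36. These shares are descriptions without a test, and a match of letters is not a bound site. Base composition moved with the classes: the median GC content was 57.7% for lower, 61.7% for higher and 59.7% for genes within 2-fold. It was 53.3% both for genes lower by 4-fold or more and for those lower by 8-fold or more. The part of base composition in the shares was not tested.

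The promoters of 5 lower genes, shown in GRCm38.p6 from RefSeq, carry the match in capitals, read 5′ to 3′ on the strand of the gene. Crx holds 2 matches and the others 1. Alpl and Ano2 have more than 1 RefSeq promoter and the one with the match is shown. They were chosen as genes described here whose promoter holds the letters.
Crx, chr7:15879906-15880205, - strand: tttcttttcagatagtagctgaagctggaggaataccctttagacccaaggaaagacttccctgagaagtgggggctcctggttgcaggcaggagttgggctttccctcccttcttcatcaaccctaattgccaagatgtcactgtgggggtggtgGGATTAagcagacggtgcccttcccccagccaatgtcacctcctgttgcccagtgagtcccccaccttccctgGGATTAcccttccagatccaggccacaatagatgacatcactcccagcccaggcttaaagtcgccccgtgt
Alpl, chr4:137766426-137766725, - strand: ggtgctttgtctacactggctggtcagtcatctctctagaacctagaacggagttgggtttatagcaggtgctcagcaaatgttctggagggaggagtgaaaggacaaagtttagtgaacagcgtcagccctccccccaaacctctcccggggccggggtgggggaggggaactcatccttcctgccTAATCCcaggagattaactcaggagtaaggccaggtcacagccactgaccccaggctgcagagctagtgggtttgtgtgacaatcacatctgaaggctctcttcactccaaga
Nxnl2, chr13:51170775-51171074, + strand: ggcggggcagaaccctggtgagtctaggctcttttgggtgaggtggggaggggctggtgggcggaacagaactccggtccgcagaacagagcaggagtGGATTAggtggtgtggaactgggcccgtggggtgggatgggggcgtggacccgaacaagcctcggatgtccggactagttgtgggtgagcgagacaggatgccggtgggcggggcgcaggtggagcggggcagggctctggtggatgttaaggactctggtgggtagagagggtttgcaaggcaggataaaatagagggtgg
Rtbdn, chr8:84946741-84947040, + strand: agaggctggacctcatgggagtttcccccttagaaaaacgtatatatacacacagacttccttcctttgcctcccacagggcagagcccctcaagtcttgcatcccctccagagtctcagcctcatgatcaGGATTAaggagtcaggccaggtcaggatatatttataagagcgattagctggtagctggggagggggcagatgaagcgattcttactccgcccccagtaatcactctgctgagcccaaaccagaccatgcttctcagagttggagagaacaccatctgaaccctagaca
Ano2, chr6:125690169-125690468, + strand: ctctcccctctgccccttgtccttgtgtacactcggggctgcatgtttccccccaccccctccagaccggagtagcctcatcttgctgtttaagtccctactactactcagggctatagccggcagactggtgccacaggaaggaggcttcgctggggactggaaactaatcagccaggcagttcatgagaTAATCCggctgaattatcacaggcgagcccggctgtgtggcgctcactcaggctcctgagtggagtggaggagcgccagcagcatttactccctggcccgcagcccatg
In Crx the first match begins 94 bases before the start site, in Alpl 63, in Nxnl2 152, in Rtbdn 119 and in Ano2 59. Alpl and Ano2 carry the letters on the gene's strand, whereas the first match of Crx, Nxnl2 and Rtbdn lies on the opposite strand.

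For the other 7 motifs the 2-fold classes lay closer together. The letters TAATTA, read by homeodomains of the Q50 type, stood in 4.16% of promoters of lower genes, 3.48% of higher genes and 3.05% of genes within 2-fold. AAGGTCA, the element of orphan receptors of the Esrrb family, stood in 5.45%, 4.48% and 3.45%. TGCTGA, a core of the Maf recognition element, was found in 19.7%, 20.9% and 16.6%, and the E-box CACGTG in 7.53%, 11.4% and 9.23%. The cyclic AMP element TGACGTCA (2.60%, 2.49% and 2.80%), CCAAT (36.6%, 33.3% and 37.3%) and TATAAA (11.4%, 9.95% and 8.49%) completed the search. The chart of motif shares sets the K50 letters apart from the rest in the lower genes.

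**Figure D2:**
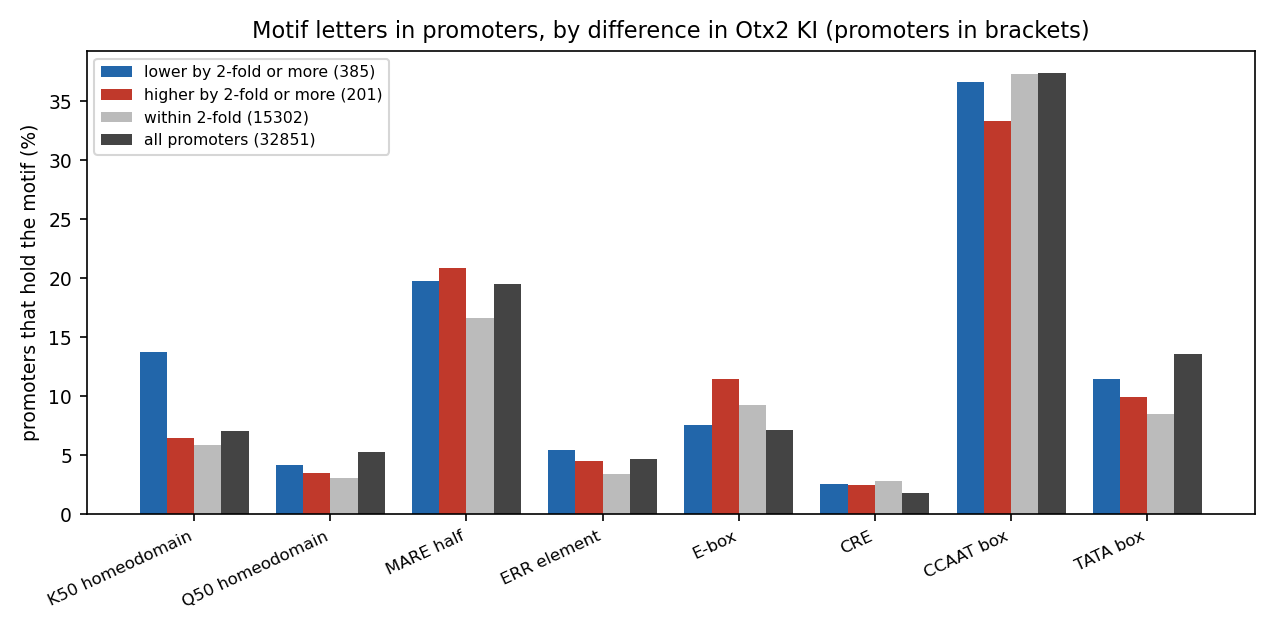
Bars give the percentage of promoters that hold each motif on either strand, for genes lower by 2-fold or more (385 promoters), higher by 2-fold or more (201), within 2-fold (15302) and all RefSeq promoters (32851). The K50 homeodomain letters stand in 13.8% of promoters of lower genes against 5.84% of genes within 2-fold.

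Outside the photoreceptor lists, the 12 leading decreases among genes brighter than the median gene held several genes known for work in photoreceptors. Esrrb, an orphan nuclear receptor that supports rod survival, read 22125 in wild-type against 652 in Otx2 KI and 1666 in Crx KO, and was 33.9-fold lower in Otx2 KI. Vtn, which encodes the adhesive plasma protein vitronectin, read 16792, 840 and 954 and was 20.0-fold lower. Both genes of the rod-derived cone viability factors were low: Nxnl1 read 9047 in wild-type against 636 in Otx2 KI (14.2-fold), and Nxnl2 read 21518 and 1692 (12.7-fold). On another probe of Nxnl1 the log2 difference was -2.96 instead of -3.83.

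Of the same group, Reep6, which shapes the endoplasmic reticulum of rods, read 78717 in wild-type against 6164 in Otx2 KI, a 12.8-fold decrease from the brightest wild-type signal of these 12 genes. Plpp2, a lipid phosphate phosphatase, read 26496 and 2109, or 12.6-fold lower, and Gramd1c, a sterol transfer protein, read 5547 and 661, or 8.39-fold lower. Rtbdn, the riboflavin-binding retbindin of the rod matrix, read 23467 and 2810 (8.35-fold). All were also below wild-type in Crx KO, where they read 7226, 2990, 891 and 3059 in that order.

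The remaining deep decreases concerned enzymes and regulators. Alpl, tissue-nonspecific alkaline phosphatase, read 6149 in wild-type against 451 in Otx2 KI and 731 in Crx KO (13.6-fold lower in Otx2 KI). Gckr, the regulatory protein of glucokinase, read 3116, 297 and 490 (10.5-fold). Ppm1n, a protein phosphatase gene that lies within 100 measured genes of Crx on chromosome 7, read 6973, 783 and 347 (8.91-fold). Tnfaip3, the ubiquitin-editing inhibitor of NF-kappaB signalling, read 5863, 749 and 931 (7.83-fold). Scanner errors of these and the 12 leading increases were 0.07 to 0.20 on the log2 scale.

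Lower genes that were at background in Otx2 KI carry only bounds. Mc1r, the melanocortin receptor of pigment cells, read 973 in wild-type, against 6.38 in Otx2 KI and 3.92 in Crx KO, and was at least 78.4-fold lower in Otx2 KI. Il7, a lymphocyte growth factor, read 503 in wild-type and was at least 40.5-fold lower. Susd3, a sushi domain protein, read 421 and was at least 33.9-fold lower. Ppef2, a calcium-binding protein phosphatase of photoreceptors, read 628 in wild-type against 6.47 in Otx2 KI and 633 in Crx KO. It was at least 50.6-fold lower in Otx2 KI on its only probe, next to a Crx KO signal at the wild-type level. With normexp background correction, which raises dim signals, the log2 differences of Mc1r, Il7, Susd3 and Ppef2 were -3.81, -3.28, -2.67 and -3.14.

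The leading increases outside the photoreceptor lists included matrix, signalling and transcription genes. Col16a1, a fibril-associated collagen, read 294 in wild-type against 26926 in Otx2 KI and 13241 in Crx KO, and was 91.7-fold higher in Otx2 KI. Averaging its 3 probes lowered the log2 difference from 6.52 to 5.52. Insm2, a zinc finger factor of neuroendocrine cells, read 265, 10420 and 8365 (39.4-fold); its other probe showed a log2 difference of 3.26 against 5.30. Fabp7, a fatty acid carrier of radial glia, read 3008, 38576 and 29413 (12.8-fold).

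Rxrg, the retinoid X receptor made by developing cones, read 1701 in wild-type against 15927 in Otx2 KI and 15994 in Crx KO. Its probes were unequal, with a log2 difference of 3.23 on the brighter one and 0.84 on the other. B3gnt2, which elongates poly-N-acetyllactosamine sugar chains, read 189 and 1675 (8.88-fold higher in Otx2 KI), and Moxd1, a monooxygenase-like enzyme, read 489 and 2560 (5.24-fold). Shisal1, a shisa-like membrane protein, was already bright, at 9097 in wild-type against 40638 in Otx2 KI (4.47-fold), and its other probe gave log2 2.20 against 2.16. The plot of leading genes shows the wild-type signal on one side of both mutant signals for each of the 24 genes; because the mutant comparisons share the wild-type array, this closeness is no independent observation.

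**Figure D3:**
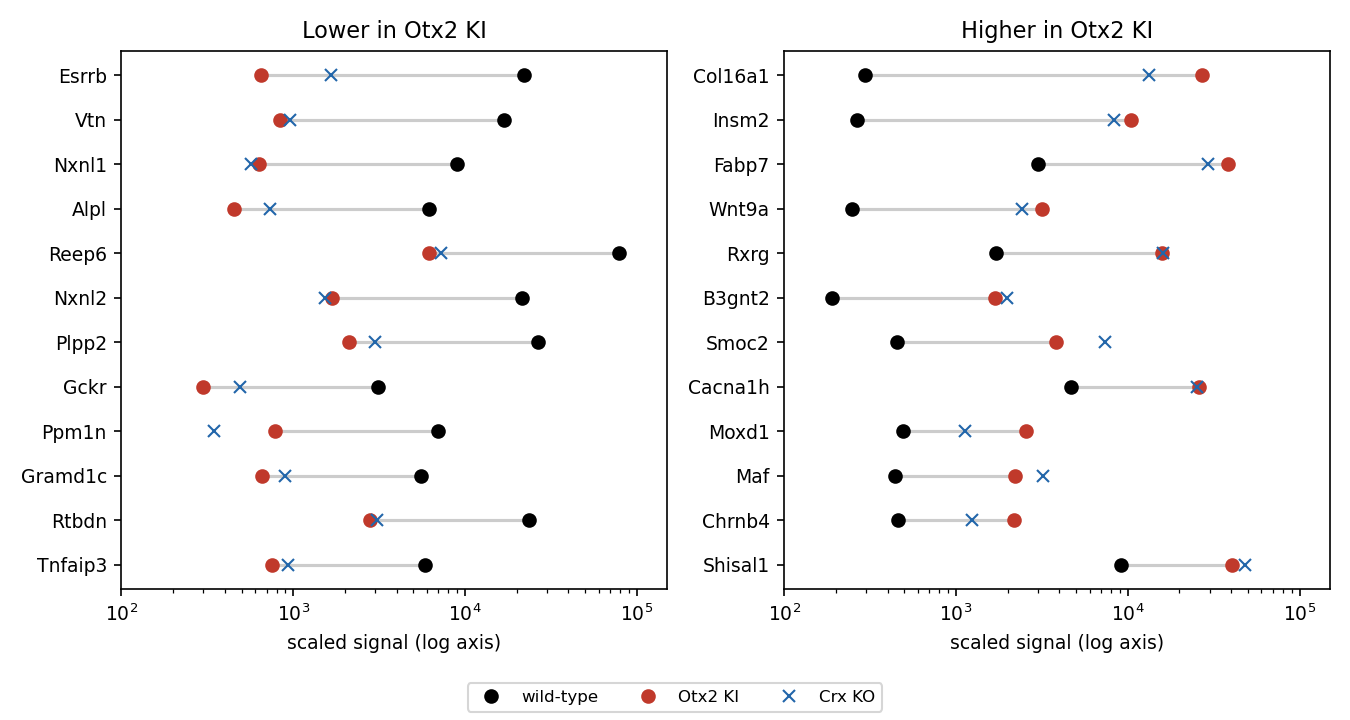
Scaled signal on a log axis for the 12 leading decreases (left) and the 12 leading increases (right) among brighter genes outside the photoreceptor lists, 1 array per genotype. Black circles are wild-type, red circles Otx2 KI and blue crosses Crx KO; Esrrb goes from 22125 to 652 and Col16a1 from 294 to 26926 in Otx2 KI.

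Among transcription factors the increases outnumbered the decreases. Of 59 measured Sox, Fox and Klf factors, 5 were higher (8.47%) and 0 lower. Foxo6, a forkhead factor of the brain, read 1320 in wild-type against 4473 in Otx2 KI (3.39-fold), and each of its probes was past 2-fold. Foxp4, a forkhead repressor of developing neurons, read 3725 and 11061 (2.97-fold), and Sox3, a factor of neural progenitors, read 249 and 795 (3.20-fold). Klf10, a TGF-beta-induced repressor, at 1099 and 2242, lay within 2-fold with normexp.

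Other factor families differed in a few members. The list of Maf, AP-1 and CREB factors also holds Egr1, Egr2 and Arc, which belong to none of these families. Of its 26 measured members 3 were higher (11.5%) and 1 lower (3.85%), with a median of 0.04. The higher ones were Maf, Egr2 and Arc, the last not a transcription factor. Of these, Arc (log2 1.31) and Atf3 (log2 -1.08) lay within 2-fold with normexp. Maf, a basic leucine zipper factor of lens and neurons, read 441 in wild-type against 2198 in Otx2 KI and 3208 in Crx KO (4.98-fold higher in Otx2 KI). Egr2, an immediate-early zinc finger factor, read 18.0, 150 and 143 (8.36-fold, or log2 1.24 with normexp against 3.06), while the related Egr1 read 4360 and 7802 and stayed within 2-fold. Of 35 nuclear receptors 2 were higher (5.71%) and 1 lower (2.86%), Rxrg among the former and Esrrb the latter. Of 65 measured homeobox factors 1 was higher and 1 lower. The lower one was Crx and the higher one Pou3f2, a neural POU factor, at 77.0 and 189, which lay within 2-fold with normexp.

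Neurogenic factors of the basic helix-loop-helix and zinc finger classes leaned upwards, with 19 of 22 measured members above 0 against 55.3% of all measured genes, and a median of 0.21. Only Insm2 passed 2-fold. Insm1, its paralog, read 20054 in wild-type against 35852 in Otx2 KI (1.79-fold). The clock gene list was flat, with a median of 0.01 over 19 genes. Its 1 member past 2-fold was Tph1, the enzyme that begins melatonin synthesis, which read 188 in wild-type and 32.9 in both mutants (5.72-fold lower in Otx2 KI). That difference was log2 -2.52, and -1.22 with normexp.

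Potassium channels ran both ways, with 3 higher (4.05%) and 4 lower (5.41%) of 74 measured, and a median of 0.00. Kcnj14, an inward rectifier, read 3662 in wild-type against 156 in Otx2 KI (23.5-fold lower). Kcnv2, a modifier subunit of the potassium current of the inner segment, read 18549 and 3252 (5.70-fold lower). Kcne2, an accessory subunit, read 6183 and 1149 (5.38-fold). Kcnj6, a G protein-gated channel, stood at 36.7 and 115 (3.12-fold higher), and lay within 2-fold with normexp.

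Of 41 cyclic nucleotide, HCN, TRP and chloride channel genes 4 were lower (9.76%) and 1 higher (2.44%). The rod channel subunits Cnga1 (46167 in wild-type, 11014 in Otx2 KI) and Cngb1 (83307 and 29437) were 4.19-fold and 2.83-fold lower. Ano2, the calcium-activated chloride channel of the photoreceptor terminal, read 4298, 899 and 770 across wild-type, Otx2 KI and Crx KO (4.78-fold lower in Otx2 KI). Voltage-gated calcium and sodium channels differed by 1 gene of 35, Cacna1h, a low-voltage-activated T-type channel. It read 4685 in wild-type against 26037 in Otx2 KI and 25214 in Crx KO (5.56-fold higher), and its other probe gave log2 1.66 against 2.47. Cacna1f, the calcium channel of the photoreceptor synapse, read 4290 and 2314, within 2-fold.

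Solute carriers, with 269 measured, had 17 lower (6.32%) and 4 higher (1.49%), so the lower share stood above the 2.53% of all genes. Slc24a1, the rod sodium-calcium-potassium exchanger, read 3696 in wild-type against 130 in Otx2 KI (28.4-fold). Slc5a2, a sodium-glucose carrier best known from the kidney, read 335 and 28.2 (11.9-fold), and Slc17a1, a phosphate and urate carrier, read 471 and 67.1 (7.02-fold). With normexp their log2 differences were -2.15 and -1.97, against -3.57 and -2.81. Slc27a2, a fatty acid transporter and ligase, was the opposite case, at 101 in wild-type against 362 in Otx2 KI and 117 in Crx KO (3.57-fold higher in Otx2 KI). The taurine carrier Slc6a6 read 17429 and 7069 (2.47-fold lower).

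Among 23 measured carbonic anhydrases and aquaporins 1 was past 2-fold. It was Aqp1, the water channel of pigment epithelium, red cells, vessels and some retinal cells, which read 4908 in wild-type against 163 in Otx2 KI and 145 in Crx KO. It was 30.1-fold lower in Otx2 KI (log2 -4.91, and -4.24 with normexp). The red cell markers moved the same way by less, with all 5 measured members below 0, a median of -0.66 and a summed signal of 52260 in wild-type against 33011 in Otx2 KI. For the pigment cell list, 15 of 16 measured members lay below 0, with a median of -0.77 and summed signals of 28106 and 15617. The part of these cells in the Aqp1 difference was not tested. Of 24 pumps of the Na/K, calcium and lipid-flipping classes, 1 was higher and 0 lower: Atp8b2, a flippase, read 46.8 and 115, and lay within 2-fold with normexp.

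Of 32 phosphodiesterases and adenylyl cyclases 7 were lower (21.9%) and 1 higher. Pde6a, Pde6b, Pde6c, Pde6g and Pde6h, subunits of the rod and cone phosphodiesterase, were among them; Pde6a, for example, read 40311 in wild-type against 887 in Otx2 KI and 2799 in Crx KO. Of 54 RGS proteins and G protein subunits 6 were lower (11.1%) and 2 higher (3.70%). Gnat3, the taste transducin, read 1130, 60.1 and 74.1 (18.8-fold lower in Otx2 KI; log2 -4.23, and -3.30 with normexp); how far its probe also reads its paralog Gnat1 was not tested. Gnb1, the rod transducin beta subunit, read 45260 and 14683 (3.08-fold).

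Calcium-binding genes of the S100 and EF-hand class had 6 of 49 lower (12.2%) and 1 higher (2.04%). Guca1b, a guanylate cyclase activator, read 23222 in wild-type against 783 in Otx2 KI (29.7-fold). Cabp4, which tunes the calcium channel of the photoreceptor terminal, read 4086, 377 and 477 (10.8-fold lower in Otx2 KI). Calml4, a calmodulin-like protein, read 248 and 64.9 (3.82-fold; log2 -1.93, and -1.30 with normexp). The list of retinol and aldehyde dehydrogenases, which also takes in Rbp4, had 3 of 44 lower (6.82%) and 1 higher. Dhrs3, which reduces all-trans-retinal, read 21743, 5784 and 9595 (3.76-fold lower in Otx2 KI), and Rdh12, a retinal reductase of the inner segment, read 16954 and 8082 (2.10-fold). The 1 higher member was Rbp4, the plasma carrier of retinol and not a dehydrogenase, which read 116, 337 and 623 (2.90-fold higher).

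Neurotransmitter receptors gave strong single differences. Drd4, the dopamine receptor of photoreceptors, read 30339 in wild-type against 5512 in Otx2 KI and 10914 in Crx KO (5.50-fold lower in Otx2 KI). Gabrr3, a rho subunit of GABA receptors, read 245, 1050 and 993 (4.29-fold higher), with log2 1.95 and 2.10 on its probes. Chrnb4, a nicotinic acetylcholine receptor subunit, read 462, 2187 and 1243 (4.74-fold higher). Its partner in the ganglionic receptor, Chrna3, stood at 54.5 in wild-type against 133 in Otx2 KI, and lay within 2-fold with normexp. In all, 3 of 42 such receptors were higher (7.14%) and 1 lower (2.38%), with a median of -0.01, whereas 24 of 24 glutamate receptors and 30 of 30 neuropeptides and their receptors lay within 2-fold.

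Energy metabolism differed in parts. Of 27 glycolysis and lactate genes 3 were lower (11.1%), 0 higher and 22 below 0, with a median of -0.29, against 44.7% of all measured genes below 0. Hk2, the hexokinase of aerobic glycolysis, read 1231 in wild-type against 292 in Otx2 KI and 328 in Crx KO (4.21-fold lower in Otx2 KI). Pfkfb2, which sets the fructose bisphosphate signal that drives phosphofructokinase, read 2821, 640 and 787 (4.41-fold). Hk1, the housekeeping hexokinase, read 36649 and 23001, within 2-fold. The third gene past 2-fold, the lactate carrier Slc16a8 of pigment epithelium, read 389 and 185 and lay within 2-fold with normexp.

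Oxidative genes stayed near wild-type by contrast. All 23 citric acid cycle genes lay within 2-fold, with a median of 0.04, and so did 76 of 77 nuclear-encoded subunits of the respiratory chain, with a median of -0.02. The exception was Cox8b, a muscle form of cytochrome oxidase, at 474 and 203 (2.34-fold lower). Ckmt1, the mitochondrial creatine kinase, read 21188 in wild-type against 7568 in Otx2 KI (2.80-fold lower). The difference between the glycolysis and oxidative lists was not tested.

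Lipid genes combined carriers that were lower with carriers that were higher. Of 35 fatty acid genes 4 were lower (11.4%) and 2 higher (5.71%), with a median of 0.00. Beside Fabp7, Fabp5, the epidermal form, read 15752 in wild-type against 35740 in Otx2 KI (2.27-fold higher). Fabp12, a retina and testis form, read 14352 and 5416 (2.65-fold lower), and Adipor1, a receptor needed for retinal docosahexaenoic acid, read 5422 and 2284 (2.37-fold lower). Cholesterol synthesis genes lay slightly below wild-type: 19 of 24 were below 0 and 0 past 2-fold, with a median of -0.34 (-0.24 with normexp). Fdft1, squalene synthase, read 1948 and 1276.

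Ribosomal protein genes leaned slightly upwards, with 75 of 80 above 0, a median of 0.17 and none past 2-fold in the measured set. Rpl19, a protein of the large subunit, read 29452 in wild-type against 37635 in Otx2 KI and 32211 in Crx KO, and Rpl10, of the same subunit, read 65531, 83707 and 79165. The list's Crx KO median was -0.03.

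Matrix genes other than Col16a1 were mixed. Of 37 collagen chains 4 were lower (10.8%) and 1 higher (2.70%). Col5a3, a fibrillar chain, read 1082 in wild-type against 71.8 in Otx2 KI and 94.2 in Crx KO (15.1-fold lower in Otx2 KI; log2 -3.91, and -2.94 with normexp). The other 3 lower chains, Col8a1, Col17a1 and Col20a1, were 2.05-fold to 2.19-fold lower and lay within 2-fold with normexp. Smoc2, a calcium-binding matricellular protein, read 454, 3807 and 7415 (8.38-fold higher). Htra1, a secreted protease, read 18336 and 9038 (2.03-fold lower), the 1 member past 2-fold among 33 matrix proteases and inhibitors.

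Wnt ligands and Frizzled receptors had 3 higher and 3 lower of 36 measured (8.33% each). Wnt9a read 248 in wild-type against 3166 in Otx2 KI and 2430 in Crx KO (12.8-fold higher). Fzd10, a Frizzled receptor, read 1050, 213 and 318 (4.92-fold lower), and Rspo2, which amplifies Wnt signals, read 208, 64.7 and 179 (3.20-fold lower; log2 -1.68, and -1.0 with normexp). Wnt9b (114 and 35.6) and Wnt3 (29.2 and 75.7) were past 2-fold but lay within it with normexp. In the Notch, Hedgehog and BMP list, Jag1, a Notch ligand, read 1528 and 603 (2.54-fold lower) and Inhbb, an activin subunit, read 712 and 1641 (2.30-fold higher), with 39 of 42 members within 2-fold.

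Adhesion, guidance and synapse families lay mostly at the background share. Of 66 semaphorins, plexins, ephrins, netrins and slits, 1 was higher: Epha8, an ephrin receptor, read 4349 in wild-type against 10177 in Otx2 KI (2.34-fold). Lrrc4, a leucine-rich repeat adhesion protein of excitatory synapses, read 1561, 5009 and 5433 (3.21-fold higher). Cdh20, a classical cadherin, read 182 and 505 (2.77-fold higher). Among complexins, the vesicle fusion clamps, Cplx4 of the ribbon synapse read 1849 and 507 (3.65-fold lower), whereas Cplx2 of conventional synapses read 22998 and 52030 (2.26-fold higher, but 4 probes ran from log2 0.15 to 1.39). Cplx3 read 7384 and 14545, just inside 2-fold at 1.97-fold higher.

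Cilium transport genes lay slightly below wild-type. Of 39 genes for intraflagellar transport and the BBSome, the coat that sorts cargo at the cilium, 30 were below 0 and 3 were past 2-fold (7.69%); the median was -0.23. Bbs5 read 4455 in wild-type against 1653 in Otx2 KI and 1561 in Crx KO (2.70-fold lower in Otx2 KI), and its probes gave log2 -1.48 and -1.43. Bbs12, a chaperonin-like protein for the same coat, read 2125 and 908 (2.34-fold), and Wdr60, a dynein-2 chain, read 1727 and 785 (2.20-fold). Tubulins and actins, 37 measured, were all within 2-fold.

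Stress, death and immune lists were mostly near wild-type. Among 23 heat shock and unfolded protein genes, 3 were lower (13.0%) and 0 higher, with a median of 0.05. Hspa1a, the inducible Hsp70, read 731 in wild-type against 133 in Otx2 KI and 215 in Crx KO (5.51-fold lower), and Trib3, a pseudokinase induced by stress, read 1117, 213 and 240 (5.24-fold lower). All 28 cell death genes lay within 2-fold, with a median of 0.05. Of 25 interferon and antigen presentation genes 24 did so too, and the exception, Irf7, lay within 2-fold with normexp.

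Glial and complement genes gave few differences. Serping1, the C1 inhibitor, was the 1 complement or chemokine gene past 2-fold of 18 measured, at 196 in wild-type against 930 in Otx2 KI and 904 in Crx KO (4.75-fold higher, with log2 2.32 and 2.25 on its probes). Lcn2, a lipocalin of reactive glia, read 283 and 65.6 (4.32-fold lower; log2 -2.11, and -1.35 with normexp), while the other 13 reactive glia and astrocyte genes were within 2-fold. Txnip, an inhibitor of thioredoxin, read 505 and 1256 (2.48-fold higher), and Gpx4, which repairs lipid peroxides, read 54517 and 27948, just inside 2-fold. In the cell cycle list 28 of 29 genes were within 2-fold, and Plk1, a mitotic kinase, read 779 and 221 (3.53-fold lower).

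Markers of the other retinal cell types checked the tissue label. Markers of bipolar, amacrine, horizontal and ganglion cells and of Muller glia were measured on both arrays, with 20 of 20 ON bipolar, 19 of 20 amacrine, 9 of 9 horizontal, 16 of 16 ganglion cell and 20 of 20 Muller genes well above background. ON bipolar markers had 2 of 20 lower (10.0%) and a median of -0.18. Rgs9bp, the anchor of the G protein regulator that rods use as well, read 4311 in wild-type against 1338 in Otx2 KI. Its other probe gave log2 -0.81, within 2-fold, against -1.69. Lrit3 read 114 and 44.9, within 2-fold with normexp. In the amacrine list, 1 gene that was not measured had an increase of at least 2-fold, with its wild-type signal not well above background. Amacrine, horizontal, ganglion and Muller lists had 0 measured members past 2-fold, with medians of 0.06, -0.01, 0.09 and 0.17. Their summed signals in wild-type and Otx2 KI were 113630 and 124762, 61815 and 65305, 86375 and 90618, and 266076 and 315152. Single members lay further out, such as Th, the dopamine synthesis enzyme, at 1350 and 781, and Tfap2c, an amacrine cell factor, at 1780 and 3036.

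Markers of tissues next to the retina differed between the arrays in some lists and not in others. All 9 measured genes of the cornea, iris and muscle list lay within 2-fold, with a median of 0.00. Blood vessel genes were within 2-fold, with 19 of 22 below 0 and a median of -0.22. For pigment cells 2 of 16 were lower (12.5%), Ttr and Lrat. Ttr, the thyroxine carrier transthyretin, read 7486 in wild-type against 3269 in Otx2 KI and 2451 in Crx KO, and Lrat, a retinol acyltransferase, read 73.5, 34.5 and 13.5 and lay within 2-fold in Otx2 KI with normexp. The melanin enzyme gene Dct read 10662, 5706 and 3353, within 2-fold in Otx2 KI. Lens genes had 6 of 19 measured members higher (31.6%), all 6 of them crystallins, and 1 of 19 with normexp. The list had a median of 0.52 (0.27 with normexp) and summed signals of 6189 in wild-type against 8682 in Otx2 KI and 4909 in Crx KO. Cryaa, the alpha crystallin, read 106, 334 and 62.5, and was within 2-fold with its probes averaged. The lens membrane marker Mip was not well above background on either array. The part of pigment cells in the differences of Mc1r, Ttr and Krt18, and of lens in those of the crystallins, was not tested.

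Of 1066 olfactory receptors on the array 883 were dim on both arrays, and among 115 measured 1 was higher and 1 lower (0.87% each), both within 2-fold with normexp. Of 27 measured keratins 1 was higher and 2 lower. Krt73 read 1930 in wild-type against 6984 in Otx2 KI and 9807 in Crx KO (3.62-fold higher), and Krt18, a simple epithelium keratin, read 6983, 1953 and 2237 (3.58-fold lower). Krt23, the other lower keratin, read 68.8 and 32.2 and lay within 2-fold with normexp. No kallikrein of 13 measured was past 2-fold in Otx2 KI, although Klk1b3 read 48.7, 68.7 and 1263 across wild-type, Otx2 KI and Crx KO. The plot of gene lists gives the differences of every measured member for 29 of the 66 lists and families.

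**Figure D4:**
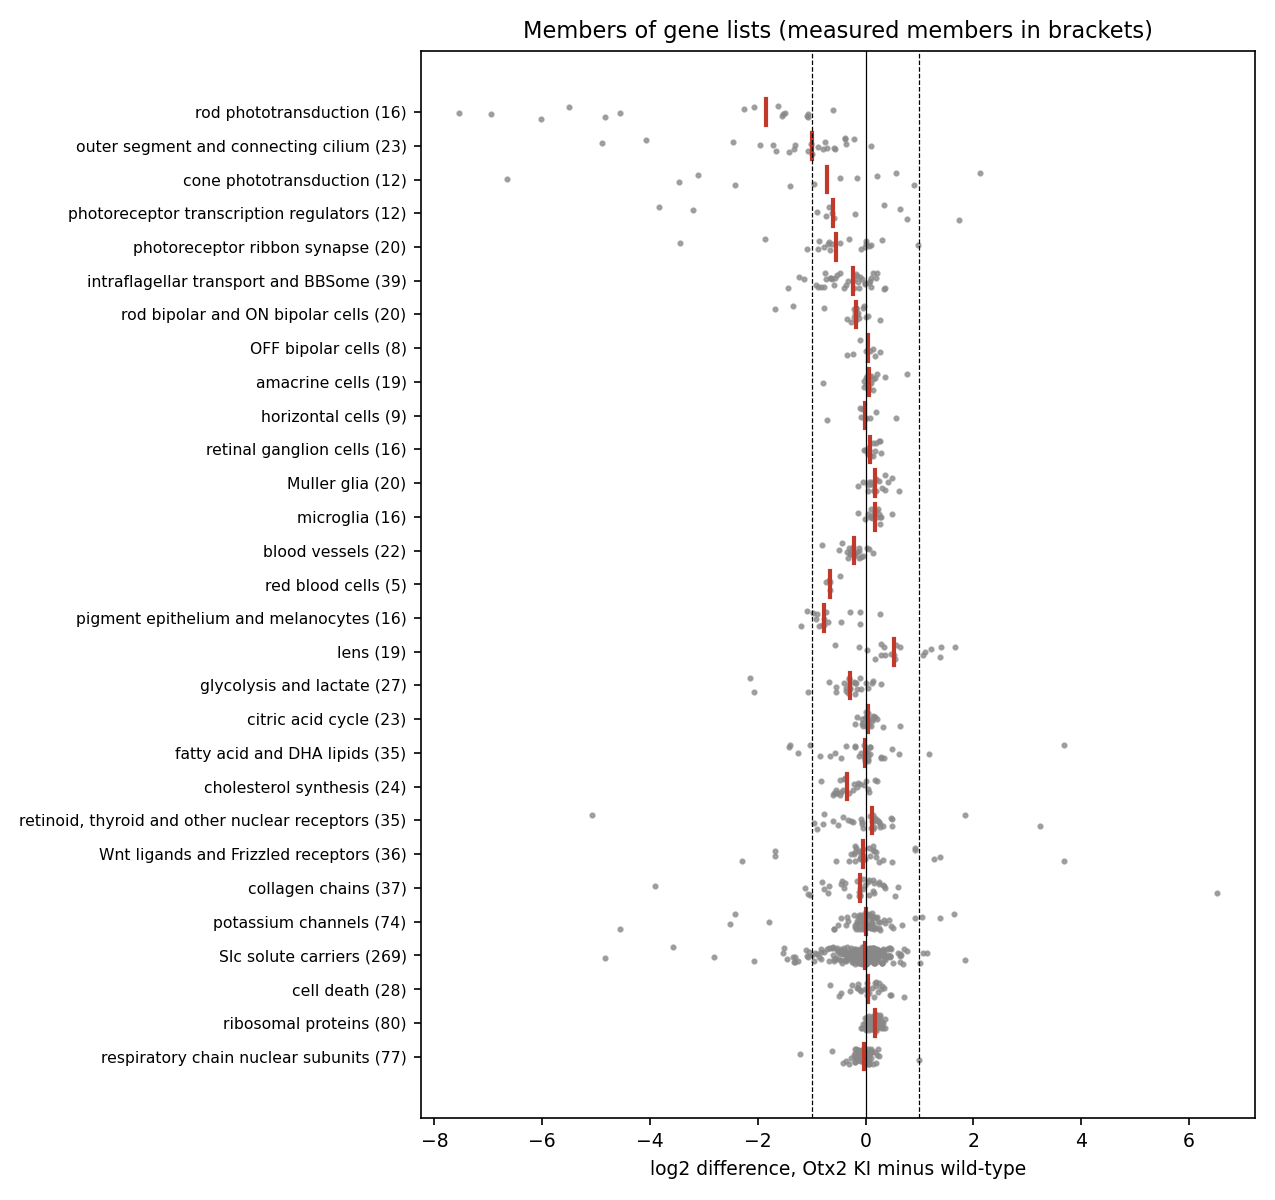
Grey points are measured members of each list and red bars the list medians; the horizontal axis is the log2 difference, Otx2 KI minus wild-type, and dashed lines mark 2-fold. The rod list has its median at -1.85, the glycolysis list at -0.29 and the lens list at 0.52, while the amacrine, ganglion cell and citric acid cycle lists lie around 0.

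By position, the genes past 2-fold were spread over all autosomes and the X chromosome. The share of lower genes ran from 1.21% on chromosome 13 to 3.43% on chromosome 6, and that of higher genes from 0.70% on chromosome 7 to 2.44% on chromosome 16. Around Crx on chromosome 7, 4 of the 200 nearest measured genes in RefSeq order were higher and 2 lower, or 3% past 2-fold. Around Otx2 on chromosome 14, 1 of 200 was higher and 2 lower, or 1.5%. Over all measured genes 1.35% were higher and 2.53% lower. With both directions counted, neither neighbourhood exceeded the general share of genes past 2-fold. For higher genes, the share around Crx, 4 of 200, lay above 1.35%, and this excess was not tested. Brightness had a limited bearing on the counts: lower genes made up 3.04%, 2.78%, 2.10% and 2.20% of 4 equal classes of genes from dimmest to brightest, and higher genes 1.80%, 1.29%, 1.14% and 1.16%.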

How the data were processed

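Labelled RNA of each retina was read on a 1-colour Agilent array, and the deposited files are spot tables of intensity from Agilent Feature Extraction 12.0.3.1; per the file headers the array design uses the build mm9. The processed signal, an intensity after the scanner software's background subtraction, was used. The authors' deposited value table equals that signal multiplied by 2.49 (wild-type), 2.54 (Otx2 KI) or 2.61 (the remaining array), and its columns have medians of 129.8, 125.7 and 135.8. It is thus linear and uncentred; the labels do not say where the multipliers come from.

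Control and outlier spots were left out (136 and 132 outlier spots in wild-type and Otx2 KI), replicate spots averaged, and log2 signals reduced by each array's 75th percentile (574 and 564). Accessions matched without version to RefSeq genes of GRCm38.p6 named 28331 of 55681 probes. No symbol was found for 27350 probes; of the 13428 measured ones, 175 (1.30%) stood 2-fold or more above wild-type in Otx2 KI and 285 (2.12%) as far below. Of several probes of a gene, the brightest by mean log2 signal stood for it. The lowest scaled signals well above background, used for at-least folds, were 10.2 in wild-type and 12.4 in Otx2 KI. RefSeq promoters and gene order are from GRCm38.p6, not the build of the files.

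There was 1 array per group, so genes were called by size and no test was possible. The 66 lists and families (40 and 26, with some genes in more than 1) and the comparison were chosen with earlier results of these data known. Genes named are Crx, Otx2, the 12 leading increases and 12 leading decreases among genes brighter than the median outside photoreceptor lists, 5 at-least folds per direction, the 4 photoreceptor genes with the deepest decreases and any higher, and up to 5 members per list; clone names were counted only (16 higher and 30 lower genes), and not every gene the rule takes is printed. Only the step that takes the difference between arrays was run on simulated data, with known shifts and scanner error added to wild-type values. The motif match was checked on a made sequence. Scaling, probe choice and variation from mouse to mouse were not simulated. Python 3.11.15, numpy 2.4.6, pandas 2.3.3, R 4.3.3 and limma 3.58.1 (normexp with offset 50) were used. Alternatives changed the background correction, normalization, dim-probe filter, probe rule, threshold and source table.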

Additional observations from a re-analysis of the deposited data

Results flagged for a closer look

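Of the genes measured on all arrays, 3, named after their values were seen, were past 2-fold in opposite directions in the mutants, each against the same wild-type array; the difference was not tested. Dcstamp, a fusion protein of osteoclasts and dendritic cells, had a log2 difference from wild-type of 1.36 in Otx2 KI and -1.06 in Crx KO. Obox6, an oocyte homeobox gene, stood at -2.40 in Otx2 KI and 6.12 in Crx KO. Vmn2r67, a vomeronasal receptor, stood at -1.48 and 2.74. Among the probes without a symbol, which enter no comparison of genes, 175 stood 2-fold or more above wild-type in Otx2 KI.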

How the results depend on the processing

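No replicate could be left out and no test was made, because each genotype has 1 array. No paired analysis was possible because there is 1 array per group. With quantile normalization, the 75th percentile over probes well above background, centring on the median, the mean over probes and the authors' value table, 199 to 223 genes were higher and 385 to 423 lower, against 213 and 400. With normexp on the median signals, chosen after seeing the data, 130 were higher and 281 lower. The planned normexp on mean signals was not run. With dim probes kept, the counts were 498 higher and 906 lower; at 1.5-fold the counts were 578 and 1004, and at 4-fold 35 and 110. Of 146 named genes past 2-fold, 37 lay within it with normexp, 5 with the mean over probes, 2 with quantile normalization and 1 after centring, and under these alternatives none changed sign. Of the 13 list medians of 0.2 or more in size, 0 changed sign. The cause of these changes was not tested. Dim signals limit the folds of the lowest genes.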

Other observations

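Genes with the wild-type signal at background gave further increases. Krt90, a keratin, read 5.83 in wild-type against 106 in Otx2 KI and 123 in Crx KO a bound of at least 10.4-fold in Otx2 KI, or log2 1.21 with normexp. Tcf21, a mesodermal basic helix-loop-helix factor, read 2.62, 81.3 and 27.0 or at least 8.0-fold, with normexp log2 1.08. The olfactory receptor Olfr1026 read 2.18, 77.4 and 2.18, at least 7.62-fold higher, with normexp log2 1.24. Fndc8 and Ccdc175 were at least 6.29-fold and 5.0-fold higher, and both were within 2-fold with normexp.

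Some genes stood further from wild-type in Otx2 KI than in the array labelled Crx KO. Best2, a bestrophin chloride channel, read 69.2 in wild-type against 174 in Otx2 KI and 75.7 in Crx KO, within 2-fold with normexp. Others stood out in Crx KO only: Ramp3, a receptor activity-modifying protein, read 5501, 3436 and 32552. With 1 array each, these differences between the mutants were not tested.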
